A study of Mus musculus with 8 samples.

Results

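The Fanconi anaemia and homologous recombination genes described here are 34 named repair genes, out of 21779 protein-coding genes placed on chromosomes 1 to 19, X and Y of the mouse genome build GRCm38. They were chosen by name, for their place in the repair of crosslinked and broken DNA, and all 34 were found in the RefSeq gene table. ATAC-seq, which marks accessible chromatin by the cuts of the Tn5 transposase, was done on 8 libraries of mouse embryonic stem cells. The cells were RHKI, an E14Tg2a line that carries an HA-Rnaseh1 knock-in in every group, grown in 2i/LIF medium with serum, CHIR-99021 and PD0325901. Of the libraries, 4 are labelled control, with no treatment named, and 4 Dox, given doxycycline at 500 ng/ml for 48 h. The labels do not say whether replicates were separate cultures or whether the line is a single clone.

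The peaks came as 1 list of 76996 positions for the whole series, with no height and no value of any library. Control and Dox cells were therefore not compared, and values are given without replicate error or depth, both of which are unknown. Absence of a listed peak does not show that a gene is closed. All 8 markers of pluripotent stem cells examined, Pou5f1, Nanog and Sox2 among them, had a peak within 1 kb of a gene end. The same held for 0 of 5 primitive endoderm markers, 2 of 5 trophectoderm markers and 2 of 5 fibroblast markers, beside 61.7% of all protein-coding genes. Gata3, Elf5 and Cdx2, the trophectoderm markers without one, had a peak 1, 698 and 2173 bp from a listed transcript start. A peak does not show that a gene is expressed.

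The Fanconi pathway repairs DNA whose strands are covalently crosslinked and protects stalled replication forks. A core complex is recruited to the lesion by FANCM. With FANCL as ubiquitin ligase and UBE2T as its conjugating enzyme, the complex ubiquitinates the FANCD2-FANCI pair. Nucleases then cut the DNA on either side of the crosslink, and homologous recombination restores the broken strand. Recombination uses BRCA1 and its partners, then BRCA2 and PALB2 to prepare the single strand for pairing with its intact copy. R-loops, in which RNA pairs with a DNA strand behind the polymerase, can stall forks, and loss of BRCA or Fanconi proteins is known to let them accumulate. RNase H1 degrades the RNA of such hybrids.

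Every one of the 34 genes had at least 1 peak within 1 kb of an end of the gene, beside 61.7% of all protein-coding genes. The genes were chosen with earlier results of these data known, so the difference between these shares was not tested. For the 32 of at least 10 kb, where the ends are well apart, the share among protein-coding genes of that length was 70.7%. Together the 34 genes held 120 peaks, 50 at their ends and 70 inside. Of the genes, 20 had 1 end peak, 12 had 2 and Fancc and Rad51d had 3. Only these 2 of the 32 longer genes had peaks at both ends (6.25%, beside 9.21% of all genes of at least 10 kb). No gene lay outside the 1 kb limit. The farthest from its nearest end peak was Mad2l2, at 465 bp, followed by Nbn at 288 bp and Ercc4 at 248 bp.

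**Figure D1:**
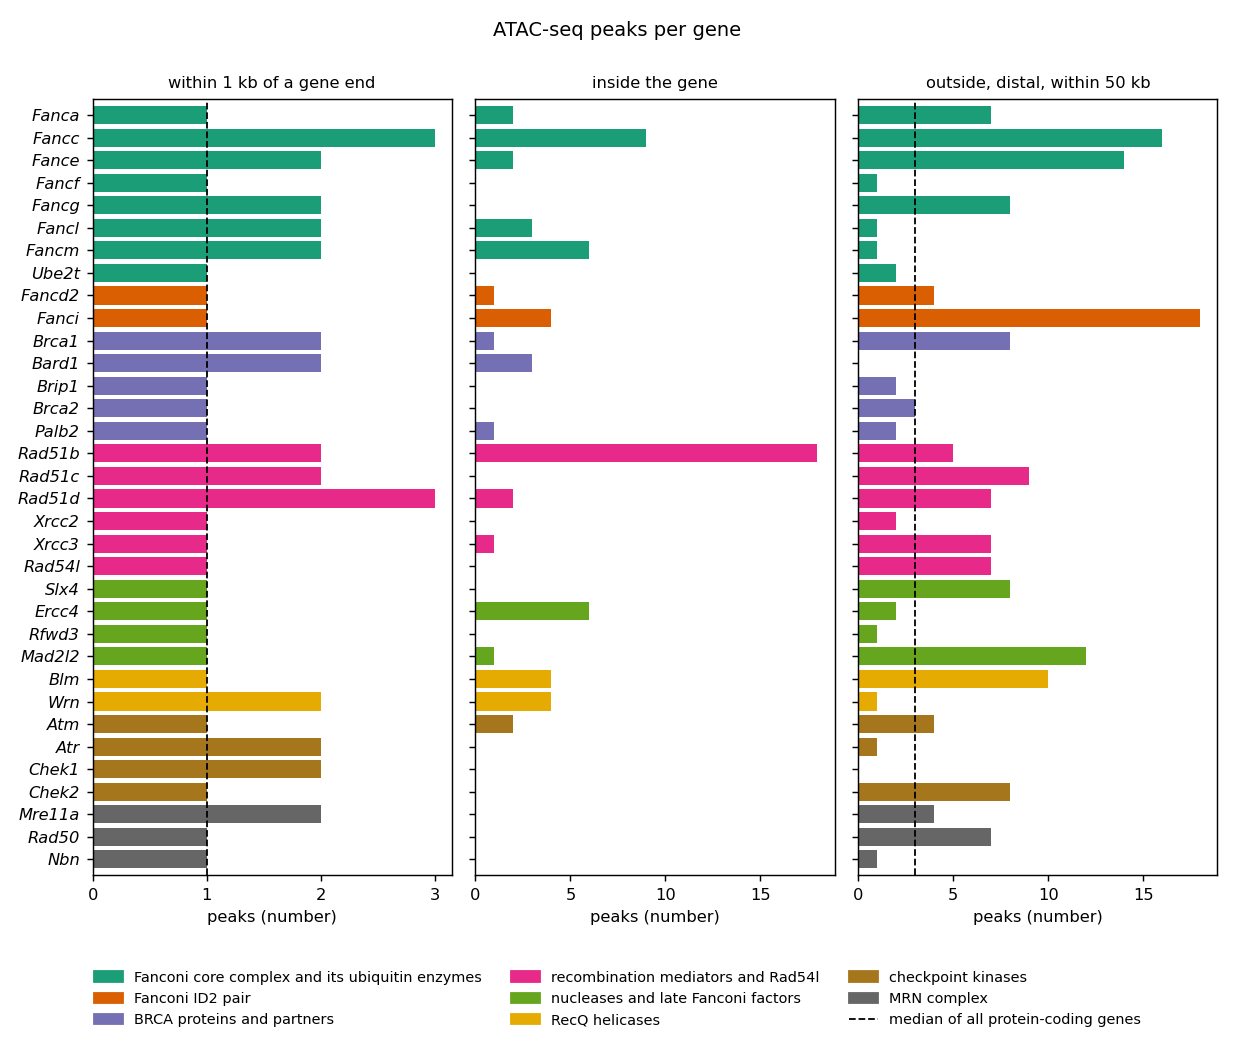
Bars give the number of peaks of the list for each of the 34 genes (vertical axis, coloured by role): within 1 kb of a gene end (left), inside the gene over 1 kb from both ends (middle), and outside the gene within 50 kb and more than 1 kb away from the ends of all protein-coding genes (right). Dashed lines are medians of all protein-coding genes (1, 0 and 3). Every gene has an end peak, while Rad51b has 18 inside and Fanci 18 outside.

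RefSeq transcript starts with their promoter sequence (250 bases before the start and 50 after it, GRCm38.p6) matched 28 of the 34 genes, and gave 32 starts in all. Not matched were Fancd2, Rad51d, Xrcc2, Wrn, Rad50 and Nbn. A peak lay within 1 kb of a start for 27 of the 28 genes (96.4%), beside 62.1% of all 17492 protein-coding genes with a listed start. For the same 27 it reached into the promoter window itself, beside 53.6% of all such genes. The start base was covered by a peak in 17 of 28 (60.7%, beside 34.9%), and in another 10 the nearest peak edge lay no more than 200 bp away. The centre of the nearest peak fell before the start in 19 genes and after it in 9, with a median position of -48.5 bp. The same position is not given for all genes, so this is not shown to be particular to these. The exception was Slx4, which encodes the scaffold of the crosslink nucleases. Its listed start lay 2151 bp inside the outer gene bound and 2164 bp from the nearest peak, while the bound itself had a peak 13 bp away.

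**Figure D2:**
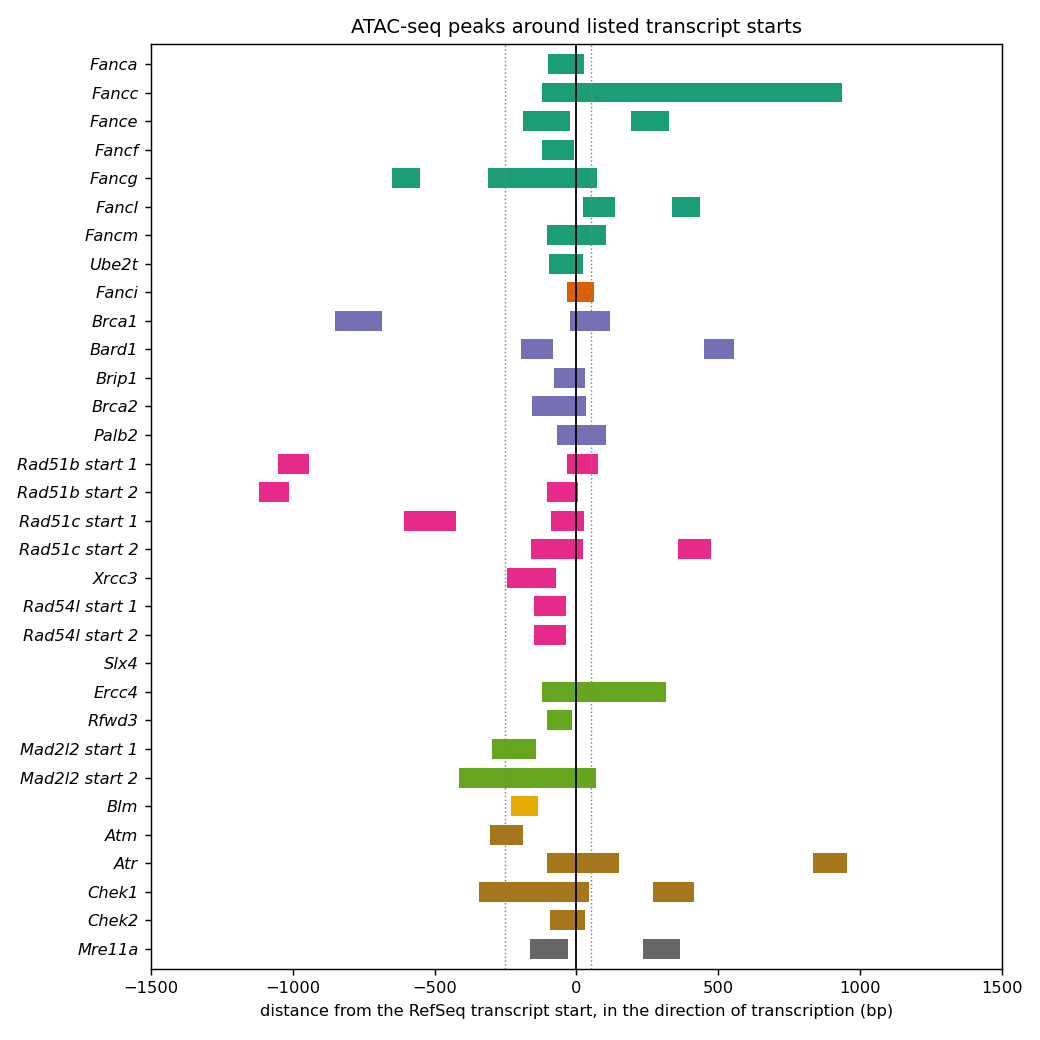
Each row is 1 listed transcript start of a gene (32 starts, 28 genes), coloured by role as in the plot of peaks per gene. Bars are peaks drawn at their width along the distance from the start (bp, negative before the start), and dotted lines bound the promoter window. Peaks gather at the start in every row but that of Slx4, and the Fancc peak reaches 937 bp past its start.

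Promoter sequences are shown for 6 genes that span what was seen, with the bases inside a listed peak in capitals. Each runs 5′ to 3′ in the direction of transcription and ends at the base before the start. Fancc (chr13:63431746-63431995, minus strand) holds the edge of the widest peak in these genes, with 122 of 250 bases covered. Fancf (chr7:51862268-51862517, minus strand) and Xrcc3 (chr12:111813880-111814129, minus strand) carry several CCAAT boxes. Fancg (chr4:43010302-43010551, minus strand) is covered throughout, Brca2 (chr5:150522371-150522620, plus strand) over 155 bases and Slx4 (chr16:4001679-4001928, minus strand) over 0.
Fancc: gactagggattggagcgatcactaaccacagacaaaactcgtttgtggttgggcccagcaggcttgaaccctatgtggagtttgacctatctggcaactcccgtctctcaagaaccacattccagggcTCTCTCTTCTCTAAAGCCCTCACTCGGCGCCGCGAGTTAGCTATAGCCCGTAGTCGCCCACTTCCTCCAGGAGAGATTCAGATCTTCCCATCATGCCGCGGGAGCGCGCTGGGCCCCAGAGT
Fancf: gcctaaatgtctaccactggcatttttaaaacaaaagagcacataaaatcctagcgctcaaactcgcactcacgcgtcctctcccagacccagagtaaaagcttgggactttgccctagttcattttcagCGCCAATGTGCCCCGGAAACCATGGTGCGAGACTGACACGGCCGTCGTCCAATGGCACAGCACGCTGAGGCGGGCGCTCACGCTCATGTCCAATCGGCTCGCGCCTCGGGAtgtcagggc
Xrcc3: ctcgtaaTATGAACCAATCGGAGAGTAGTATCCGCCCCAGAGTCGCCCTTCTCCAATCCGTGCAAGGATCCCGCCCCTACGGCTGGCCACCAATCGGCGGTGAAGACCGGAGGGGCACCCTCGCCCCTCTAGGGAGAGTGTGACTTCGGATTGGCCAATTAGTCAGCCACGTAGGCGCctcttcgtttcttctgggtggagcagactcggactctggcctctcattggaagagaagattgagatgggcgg
Fancg: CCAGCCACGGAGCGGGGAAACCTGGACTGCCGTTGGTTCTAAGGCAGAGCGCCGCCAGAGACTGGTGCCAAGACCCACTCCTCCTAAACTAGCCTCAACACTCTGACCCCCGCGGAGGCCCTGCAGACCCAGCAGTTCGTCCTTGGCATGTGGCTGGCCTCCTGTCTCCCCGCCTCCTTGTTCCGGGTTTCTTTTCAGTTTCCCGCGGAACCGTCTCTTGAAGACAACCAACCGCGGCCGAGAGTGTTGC
Brca2: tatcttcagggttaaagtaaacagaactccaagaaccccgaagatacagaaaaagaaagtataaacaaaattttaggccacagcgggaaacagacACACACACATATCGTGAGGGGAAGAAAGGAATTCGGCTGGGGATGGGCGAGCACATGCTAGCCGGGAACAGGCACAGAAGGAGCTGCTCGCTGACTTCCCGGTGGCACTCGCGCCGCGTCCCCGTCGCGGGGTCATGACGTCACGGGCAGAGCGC
Slx4: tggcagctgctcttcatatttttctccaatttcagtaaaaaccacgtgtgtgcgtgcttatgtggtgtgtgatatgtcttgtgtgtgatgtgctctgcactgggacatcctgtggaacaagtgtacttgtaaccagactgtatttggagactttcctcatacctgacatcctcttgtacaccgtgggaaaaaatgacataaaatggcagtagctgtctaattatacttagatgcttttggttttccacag

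The windows were searched on both strands for short fixed motifs. A gene was counted when any of its windows held the motif. CCAAT, the box bound by NF-Y, stood in 20 of the 28 genes (71.4%). This compares with 42.3% of all 17492 genes with a listed start and 43.6% of the 10857 with a peak within 1 kb of it. Before the start, 19 genes held CCAAT (67.9%, beside 39.5% of all and 41.3% of genes with a start peak). They held 37 boxes, of which 25 lay wholly inside a peak, in 13 genes. Peaks cover part of these stretches in most genes, and whether the boxes favour the covered bases was not tested. Xrcc3 had 6 boxes, 5 of them in its peak. Fancf had 3, at 118, 72 and 31 bases before the start, all in its peak, as were both boxes of Fanca, Blm and Mre11a.

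An E2F-like motif (TTTCCCGC, TTTGGCGC or TTTCGCGC) stood in 5 of the 28 genes (17.9%, beside 2.76% of all and 4.03% of genes with a peak at the start). E2F factors drive genes of the S phase of the cell cycle. The 5 were Fancg, Bard1, Brca2, Rad51c and Chek2. The match in Fancg began 52 bases before the start and lay in the peak, while those of Bard1, Brca2 and Chek2, at 209, 168 and 152 bases before the start, lay outside it. The match in Rad51c lay past its start. The CRE-like motif TGACGTCA was found in Brca2, 20 bases before the start. In Rad51c it lay 45 bases before the listed start at 87404506, but past the other listed start, at 87404954. Both matches lay inside a peak (7.14% of the 28 genes, beside 2.54% of all and 3.61% of genes with a start peak).

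The other motifs searched were found at these shares. The SP1-like motif GGGCGGG was found in 13 genes (46.4%, beside 36.9% of all and 53.1% of genes with a start peak). CCGGAAG, bound by ETS factors, was found in 6 (21.4%, beside 12.9% and 19%) and GCATGCGC, of NRF1, in 3 (10.7%, beside 3.94% and 5.78%). The cell cycle element CHR (TTTGAA or TTCGAA) was found in 4 (14.3%, beside 20.2% and 15.6%), the E-box CACGTG in 1 (3.57%, beside 8.91% and 11.7%), and the TATA motif TATAAA in 3 (10.7%, beside 14.8% and 8.40%). ATGGCGG, of YY1, was found in 2 (7.14%, beside 6.05% and 9.02%). The octamer ATGCAAAT was found in 0, beside 1.90% of all genes with a listed start and 1.74% of genes with a start peak. No matches of different motifs overlapped before the starts. A match is a run of letters and was not shown to be bound.

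The promoters were rich in CpG. The ratio of observed to expected CpG over the window had a median of 0.899 in the 28 genes, beside 0.576 in all genes with a listed start, 0.762 in those with a peak within 1 kb of it and 0.183 in those without. Fancl and Slx4 had the lowest ratios, 0.182 and 0.313, and Fancl nonetheless had a peak 24 bp past its start, with 0 of the 250 bases before it covered. GC content was 58.8% in the median, above the 56.3% of all genes with a listed start and below the 61.3% of those with a peak within 1 kb of it. GC skew, (G - C)/(G + C) on the strand of the gene, is a feature linked to R-loops when positive past the start. Over the window it ran from -0.23 in Rad51b to 0.251 in Brip1. Its median was -0.0249, beside 0.00719 in all and 0.00599 in genes with a peak at the start. Most of the window lies before the start. Skew past the start alone was not measured, so a link to R-loops was not tested.

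The 8 genes of the Fanconi core complex and its ubiquitin enzymes had 1 to 16 distal peaks outside the gene within 50 kb, with a median of 4.5. Fanca (chromosome 8, 123266294 to 123318651), which encodes a core subunit, had 1 end peak over its start, 2 peaks inside and 7 distal peaks outside. A peak counts as distal when its centre is more than 1 kb away from the ends of all protein-coding genes. Fance (chromosome 17, 28313530 to 28326574), the subunit that binds FANCD2, had 2 end peaks, 2 peaks inside a gene of 13045 bp and 14 distal peaks outside. Fancg had 2 end peaks, one of 383 bp over its start, and 8 distal peaks outside. In contrast, Fancf, a gene of 1.69 kb whose protein bridges subcomplexes, had 1 end peak and 1 distal peak. The ligase gene Fancl and the translocase gene Fancm also had 1 distal peak each outside the gene, with 3 and 6 peaks inside. Ube2t had 1 end peak, 0 inside and 2 outside.

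Fancc (chromosome 13, 63301334 to 63497292), another core subunit gene, held the wide peak of 1060 bp, at 63430808 to 63431867. Only 3 peaks of the whole list were wider. By the outer bounds of the gene this peak lies deep inside, but the listed transcript start falls within it, 65.5 kb from the outer bound. The peak covers 122 bp before that start and 937 bp after it. The next peaks lay 55752 bp upstream and 65271 bp downstream, so the wide peak stood alone in a long stretch. Fancc had 9 peaks inside, of which the other 8 were 94 to 230 bp wide, with 3 at its ends and 16 distal peaks outside. The end of the gene opposite its start side had a peak at 63301282 to 63301467. That peak lay within 1 kb of the miRNA genes Mir23b, Mir27b, Mir3074-1 and Mir24-1. Among the 28 genes with a listed start, Fancc was the only one with a peak at the far end.

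**Figure D3:**
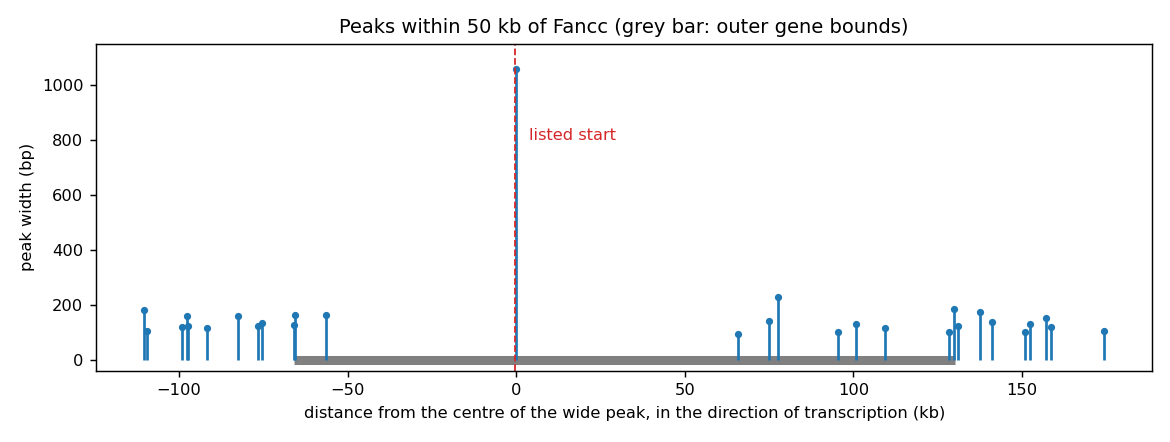
Peaks within 50 kb of Fancc, placed by their centre along the distance from the centre of the wide peak (kb, in the direction of transcription) and with their width (bp) as height. The grey bar spans the outer gene bounds and the dashed line is the listed start. The peak of 1060 bp stands at the start, and the others are all 230 bp wide or less.

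Peaks inside the outer bounds also lay over a listed start at Mad2l2 and Fancm. Mad2l2, which encodes the REV7 protein of translesion synthesis and end protection, had its only inside peak, of 485 bp, over its second listed start, 10332 bp from the outer bound. At its first start the nearest peak lay 143 bp away. Fancm had a peak of 206 bp over its start, 1493 bp inside the outer bound. With the 3 peaks at these starts set aside, 17 genes rather than 18 had a peak inside, Mad2l2 being the one lost.

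The FANCD2-FANCI pair, which is ubiquitinated by the core complex, had 1 end peak at each gene. Fanci (chromosome 7, 79392312 to 79450266) had 4 peaks inside and 18 distal peaks outside, the most of the 34 genes, and 99.8% of protein-coding genes had fewer. Fancd2 (chromosome 6, 113531640 to 113597020) had 1 inside and 4 outside.

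BRCA1, BARD1 and BRIP1 work together at broken ends, and BRCA2 and PALB2 prepare the strand for pairing. Brca1 (chromosome 11, 101488761 to 101551955) had 2 end peaks, at 101551837 to 101551977 over the start and at 101552639 to 101552807, with 1 peak inside and 8 distal peaks outside. Its partner Bard1 had 2 end peaks, 3 inside and 0 outside. Brip1, which encodes the helicase FANCJ, had 1 peak in all of its 143 kb, at the start, and 2 outside. Brca2 (chromosome 5, 150522297 to 150570147) had 1 end peak of 191 bp over its start, 0 inside and 3 outside, and Palb2 had 1, 1 and 2. The 5 genes thus ran from 0 to 8 distal peaks outside, with a median of 2.

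Another 6 genes, Rad51b, Rad51c, Rad51d, Xrcc2, Xrcc3 and Rad54l, act as mediators of strand pairing. Rad51b (chromosome 12, 79297282 to 79848260) spans 551 kb and had 18 peaks inside, the most of the 34 genes, or 3.27 per 100 kb. One of these, at 79686687 to 79687161, was 475 bp wide. Rad51c had a peak over each of its 2 listed starts, 0 inside and 9 outside. Rad51d had 3 end peaks, the widest of 500 bp, with 2 inside and 7 outside. Xrcc2 had 1 end peak, 0 inside and 2 outside, Xrcc3 1, 1 and 7, and Rad54l, the gene of a motor protein that remodels DNA during pairing, 1, 0 and 7.

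Among late Fanconi factors, Ercc4 (chromosome 16, 13109366 to 13152009), which encodes the XPF nuclease, had an end peak of 439 bp over its start, 6 peaks inside (14.1 per 100 kb) and 2 outside. Slx4 had 1 end peak, 0 inside and 8 outside. Rfwd3, the gene of a ubiquitin ligase acting on the single-strand binding protein RPA, had 1, 0 and 1. Mad2l2 had 12 outside. The RecQ helicase genes Blm and Wrn, whose proteins unwind recombination intermediates, both had 4 peaks inside, with 10 and 1 outside.

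The 4 checkpoint kinase genes had 0 to 8 distal peaks outside. Atm, the kinase of broken ends, had 1 end peak, 2 inside and 4 outside. Atr, the kinase of stalled forks, had 2 end peaks, one of 255 bp over the start, 0 inside its 95.6 kb and 1 outside. Its effector Chek1 (chromosome 9, 36708482 to 36726658) had 2 end peaks, one of 387 bp over the start, and no distal peak within 50 kb. Chek2 had 1 end peak, 0 inside and 8 outside. The MRN complex senses broken ends. Its genes Mre11a, Rad50 and Nbn had 2, 1 and 1 end peaks, no peak inside, and 4, 7 and 1 outside, and the end peak of Nbn was 427 bp wide.

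Across the 34 genes, 18 had a peak inside (52.9%), beside 45.9% of all protein-coding genes. Among the 32 of at least 10 kb the share was 56.2%, beside 64.5% of all genes of that length. The 2 counts fell on opposite sides of their backgrounds, and neither was tested. Density inside ran from 0 to 15.3 per 100 kb in Fance. Its median was 1.56, beside 0 in all protein-coding genes and 1.67 in those that have an end peak. The longest genes without an inside peak were Brip1 and Atr.

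Distal peaks outside the gene numbered 0 to 18 with a median of 4, beside 3 in all protein-coding genes and 5 in those with an end peak. They were 0 at Bard1 and Chek1 (5.88%, beside 18.5% of all protein-coding genes and 7.3% of those with an end peak). They were 10 or more at Fanci, Fancc, Fance, Mad2l2 and Blm, while 91.2% of all protein-coding genes had fewer than 10. Counting distal peaks inside the gene as well gave a median of 7, beside 5 in all genes and 6 in those with an end peak. This count takes in more sequence in longer genes. The median length was 45200 bp in the 34 genes, 17200 bp in all genes and 22400 bp in those with an end peak.

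**Figure D4:**
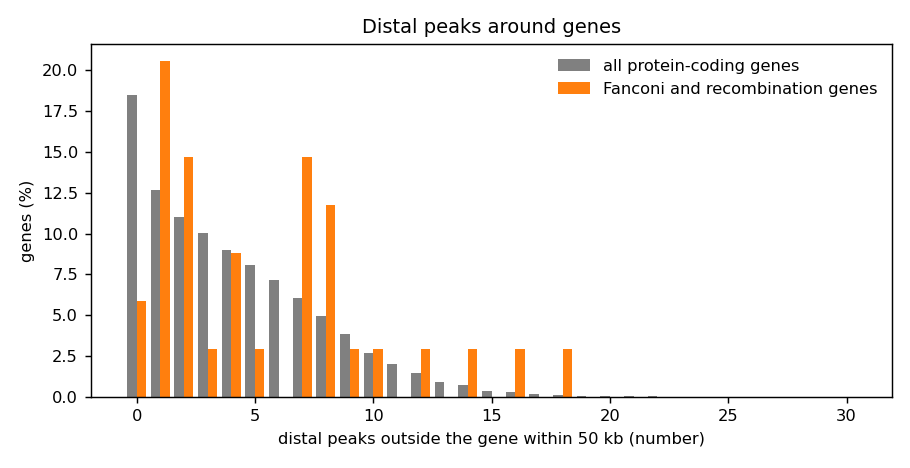
Share of genes (%) by the number of distal peaks outside the gene within 50 kb, for the 34 genes (orange) and all 21779 protein-coding genes (grey). The 34 genes spread from 0 to 18 around a median of 4, and the background median is 3.

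Peak widths in these genes were near those of the same classes elsewhere. The 50 end peaks had a median of 129 bp (quartiles 112 and 172 bp), beside 134 bp for end peaks of all protein-coding genes, and 16.0% were over 200 bp, beside 15.1%. The 70 inside peaks had a median of 126.5 bp, beside 129 bp, with 8.57% over 200 bp, beside 7.55%. Of the 6 inside peaks over 200 bp, 3 lay over listed starts, at Fancc, Mad2l2 and Fancm. The end peaks over 200 bp were those of Fancg, Rad51d, Ercc4, Wrn, Atr, Chek1 and Nbn, with 2 at Wrn.

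Many of the end peaks were shared with a neighbour. In 16 of the 34 genes (47.1%) an end peak also lay within 1 kb of an end of another protein-coding gene, beside 26.4% of the 13427 protein-coding genes with an end peak. The peak at Chek2 was shared with Hscb, whose end lay 7 bp away, and that at Fancd2 with Emc3, 2 bp away. The peaks at Wrn were shared with Purg, 76 bp away, and those at Fancm with Fkbp3, 172 bp away. For 12 of the 16 genes the strands of both were listed, and in all of these the shared peak lay at the start side of both genes. At Fancf, Atr and Mad2l2 the outer bounds of the gene and its neighbour overlapped. The list does not say to which gene such a peak belongs.

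Some listed starts lay on opposite strands, pointing away from each other and no more than 1 kb apart. Such pairs were found for 9 of the 28 genes (32.1%), beside 8.48% of all genes with a listed start. The share among genes with a peak at the start, the closer background, is not given. The pairs were Atr with 1700065D16Rik (80 bp between starts), Mre11a with Ankrd49 (81 bp), Palb2 with the dynactin gene Dctn5 (95 bp), Rad51c with the germline gene Tex14 (111 bp) and Brca1 with the autophagy gene Nbr1 (152 bp). The others were Mad2l2 with Draxin (222 bp), Xrcc3 with Zfyve21 (291 bp), Atm with the histone gene regulator Npat (376 bp) and Rad51b with Zfyve26, at the limit (1000 bp).

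The bases between the starts of the 5 closest pairs are shown to set the listed peaks against both starts. They run 5′ to 3′ towards the repair gene, with bases inside a peak in capitals. The stretches are chr9:95857518-95857596 (plus strand) for Atr, chr9:14784574-14784653 (plus strand) for Mre11a and chr7:122132947-122133040 (minus strand) for Palb2. Those for Rad51c and Brca1 are chr11:87404955-87405064 and chr11:101551956-101552106 (both minus strand).
Atr: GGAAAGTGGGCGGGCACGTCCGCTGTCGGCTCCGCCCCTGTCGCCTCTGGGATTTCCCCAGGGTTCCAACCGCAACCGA
Mre11a: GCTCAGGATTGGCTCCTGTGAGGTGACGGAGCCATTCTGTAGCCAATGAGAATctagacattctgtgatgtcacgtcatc
Palb2: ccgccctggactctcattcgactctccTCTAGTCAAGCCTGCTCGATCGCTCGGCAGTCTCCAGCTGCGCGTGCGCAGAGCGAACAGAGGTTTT
Rad51c: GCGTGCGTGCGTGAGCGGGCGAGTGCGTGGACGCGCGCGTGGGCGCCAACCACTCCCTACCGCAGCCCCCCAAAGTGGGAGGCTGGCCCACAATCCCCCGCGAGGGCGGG
Brca1: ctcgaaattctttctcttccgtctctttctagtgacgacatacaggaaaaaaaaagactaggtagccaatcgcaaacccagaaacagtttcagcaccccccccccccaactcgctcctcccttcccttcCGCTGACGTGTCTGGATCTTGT

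The stretches at Atr and Rad51c lay wholly within a peak (79 of 79 and 110 of 110 bases). At Palb2 67 of 94 and at Mre11a 53 of 80 bases were covered, with the 2 CCAAT boxes of Mre11a, 73 and 38 bases before its start, inside the peak. At Brca1 only the 22 bases next to its own start were covered, out of 151, and its CCAAT box 86 bases before the start lay outside.

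Other genes of the same pathways mostly had end peaks as well. Of 64 further Fanconi, recombination and checkpoint genes 62 had one (96.9%), and of 125 genes over 8 repair lists 119 (95.2%), and no test set the 34 genes apart from these. The share was 19 of 20 for other Fanconi and crosslink genes, 29 of 30 for other recombination genes, 14 of 14 for checkpoint genes and 10 of 12 for meiotic genes. It was 13 of 14 for end joining, 7 of 7 for mismatch repair, 13 of 13 for nucleotide excision repair and 14 of 15 for base excision repair.

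The 6 without an end peak were Faap20, Rbbp8, Mei1, Spata22, Trp53bp1 and Smug1. For 3 of them a peak lay at the listed start inside the outer bounds, over it at Faap20, a core complex partner, and at the uracil glycosylase gene Smug1, and 34 bp from it at Trp53bp1, which encodes the end protection factor 53BP1. The nearest peak to an end lay 1009 bp away at Mei1, 7534 bp at Spata22, both meiotic genes, and 23745 bp at Rbbp8, the gene of the resection factor CtIP.

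**Figure D5:**
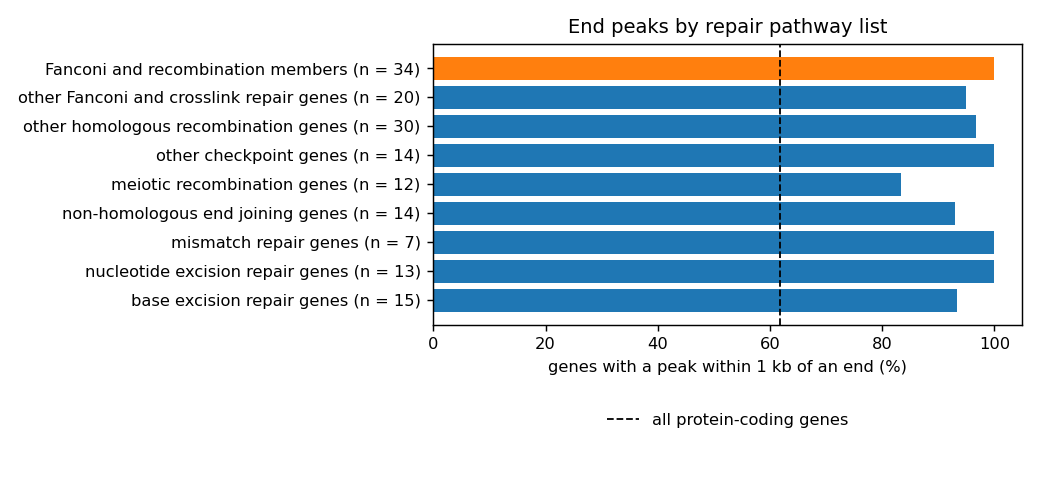
Share of genes (%) with a peak within 1 kb of an end, for the 34 genes (orange) and for 8 lists of other repair genes (blue), with the number of genes in each. The dashed line is the share of all protein-coding genes, 61.7%, and every list lies above it, from 83.3% for meiotic genes.

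Genes with the most distal peaks outside in these lists were Ercc1 (17) and Faap24 (10) among Fanconi genes, Tonsl (11) and Recql5 (10) in recombination, and Trp53 (11) and then Mdc1, Tipin and Timeless (9 each) in the checkpoint. They were 4930432K21Rik (14) and Mnd1 (10) among meiotic genes, Shld2 and Polm (8 each) in end joining and Msh6 (8) in mismatch repair. In excision repair they were Ercc2 (12) and Gtf2h1 (9) for nucleotides, and Xrcc1 (16) and Smug1 (14) for bases. List medians ran from 2 for mismatch repair to 6 for base excision repair, around the 4 of the 34 genes.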

How the data were processed

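ATAC-seq was done on 8 libraries, 4 control and 4 Dox, grouped by the sample titles. The authors deposited 1 list of 76996 peaks with 3 columns (chromosome, start counted from 0, end) and no value per library (0 such columns were left out). The submitters' processing notes name the build GRCm38 and the tools deepTools 3.5.1, HOMER 4.11, SAMtools 1.16.1, Picard 2.10.9, Bowtie2 2.5.0 and Trimmomatic 0.39. Not given in the sources used here are their roles, the peak caller with its threshold, and any pooling of libraries. The planned comparison of Dox with control was not run, since it needs values per library.

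Starts were changed to count from 1. Gene bounds were those of RefSeq on GRCm38.p6. Of 21900 protein-coding genes, 121 on other sequences or with positions in the first 3 Mb of a chromosome other than Y, which are those of patches or scaffolds, were left out. End peaks lie, by 1 bp or more, no farther than 1 kb from an outer gene bound. Inside peaks have their centre in the gene over 1 kb from both bounds. Distal peaks, counted within 50 kb of the bounds, are centred more than 1 kb away from the ends of all protein-coding genes. Of genes with several listed starts, the nearest was used for peaks, the first for base composition and any for motifs.

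The genes, roles, lists and motifs were chosen with earlier results of these data known, and no list was tested. All 34 genes are named, with the list genes lacking an end peak and the 2 of each list with the most distal peaks outside (ties included), except 1 gene that is not reported here. The name Brme1 was matched through its older symbol. Counting was tested on simulated data. Calculations used Python 3.11.15, NumPy 2.4.6, pandas 2.3.3 and SciPy 1.17.1, and figures matplotlib 3.10.9.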

Additional observations from a re-analysis of the deposited data

How the results depend on the processing

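All 34 genes kept an end peak with windows of 500 bp, 2 kb and 5 kb and with the peak centre in the window. With peaks wider than the list's median of 130 bp, 18 of 34 did. The background share of 61.7% became 56.3%, 67.2%, 73.8%, 60.9% and 41.5% under the same changes in turn, and 38.6% over all annotated genes. The median of 7 distal peaks per gene became 3 within 20 kb, 3 with wider peaks and 4 outside the gene. That of all protein-coding genes, 5, became 2, 2 and 3. Within 100 kb the medians were 10 in the 34 genes and 8 in all protein-coding genes. By the bases before the start alone, the TATA motif was left in 1 gene and YY1 in 1. Genes with a peak inside numbered 12 rather than 18 with wider peaks. Those sharing an end peak numbered 14 with a 500 bp window and 19 with neighbours of any kind, beside 16. Shares of all protein-coding genes under these changes are not given, so these counts cannot be set against a background. The median GC skew was -0.0458 over the bases before the start, beside -0.0249. The alternative without peaks near listed starts (17 genes with a peak inside) and that within 50 kb of either end (median 7) were chosen after seeing the data. The share of peaks over 200 bp stands beside the median width. No paired analysis was possible because the list carries no value per library. Depth is unknown, so missing peaks set no limit on accessibility.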
